A study of Mus musculus with 18 samples.

Results

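The genes described here are 10 regulators of apoptosis, the programmed death of cells: the pro-survival genes *Bcl2*, *Bcl2l1* and *Mcl1*, the pro-death genes *Bak1*, *Bid* and *Bcl2l11*, the death receptors *Fas* and *Tnfrsf10b*, and *Cflar* and *Casp8*, whose products act directly below these receptors. They were picked out by gene symbol, and all 10 were found among the 36757 genes of the count table. They were followed by RNA-seq through 3 mouse models of colon disease, in tissue from chronic colitis, in tissue from colitis-associated cancer (CAC) and in organoids cultured from CAC tumors, with 18 libraries in all. Each model had 3 libraries labelled wild type, named RNF138 fl/fl in the treatment protocol, and 3 labelled RNF138-/-. RNF138 is a ubiquitin ligase, an enzyme that attaches ubiquitin to other proteins.

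All mice were C57BL/6 and 6 to 8 weeks old at the start, and both genotypes of a model received the same agents. For colitis, 2% dextran sulfate sodium (DSS), which injures the colon lining, was added to the drinking water in repeated cycles, each of 7 days with DSS and 14 days without, and tissue was taken 4 weeks after the final cycle. For CAC, the carcinogen azoxymethane (AOM, 10 mg/kg) was injected 4 days before the first of the DSS cycles, so that every CAC and organoid library comes from animals exposed to both agents. The organoids were grown in matrigel from digested fragments that contained tumors, and the number of animals behind each library is not stated. Tissue libraries hold a mix of cell types, and their markers, given below, differed between groups. Neither the way in which *Rnf138* was deleted nor the exons removed are given in the sources used here. Nothing states which libraries came from separate animals or cultures, so p-values measure only the spread between these libraries.

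Cells die by apoptosis along a pair of routes. In the mitochondrial route, Bak1 and its relative Bax open the outer membrane of the mitochondrion, the pro-survival proteins Bcl2, Bcl-xL (the product of *Bcl2l1*) and Mcl1 hold them back, and BH3-only proteins such as Bim (the product of *Bcl2l11*) counter the pro-survival ones. In the receptor route, Fas ligand binds Fas and TRAIL binds the receptor encoded by *Tnfrsf10b*, the adaptor Fadd brings in caspase-8, c-FLIP (the product of *Cflar*) limits its activation, and caspase-8 can cut Bid and so join the receptor route to the mitochondrion. In the gut lining these genes are known for their part in the turnover of epithelial cells and in the loss of cells during inflammation.

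Promoter sequence was read for 9 of the 10 genes, with 12 start sites, from RefSeq (build GRCm38.p6, mm10), as the 250 bases before each start. The windows of *Bcl2*, *Bcl2l11* and *Fas* are shown because the genotype difference of these genes changed most between models, as described below. They were searched on both strands for the GC box (GGGCGG), an AP-1 site (TGANTCA), a FOXO site (TGTTTAC), the NF-κB consensus and the p53 half-site, and matches stand in capitals. No matches overlapped in these windows.
*Bcl2*, chr1:106714291-106714540, minus strand: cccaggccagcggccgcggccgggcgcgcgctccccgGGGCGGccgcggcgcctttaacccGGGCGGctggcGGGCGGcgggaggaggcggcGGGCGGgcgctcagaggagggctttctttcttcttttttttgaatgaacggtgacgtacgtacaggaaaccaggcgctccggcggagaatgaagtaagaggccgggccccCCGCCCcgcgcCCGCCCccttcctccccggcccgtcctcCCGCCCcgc
*Bcl2l11*, chr2:128125788-128126037, plus strand: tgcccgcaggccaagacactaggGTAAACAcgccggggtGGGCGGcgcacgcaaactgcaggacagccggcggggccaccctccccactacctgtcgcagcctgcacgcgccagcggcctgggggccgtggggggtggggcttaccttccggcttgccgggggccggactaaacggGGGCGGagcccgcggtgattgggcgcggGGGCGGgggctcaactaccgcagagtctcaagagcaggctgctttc
*Fas*, chr19:34290409-34290658, plus strand: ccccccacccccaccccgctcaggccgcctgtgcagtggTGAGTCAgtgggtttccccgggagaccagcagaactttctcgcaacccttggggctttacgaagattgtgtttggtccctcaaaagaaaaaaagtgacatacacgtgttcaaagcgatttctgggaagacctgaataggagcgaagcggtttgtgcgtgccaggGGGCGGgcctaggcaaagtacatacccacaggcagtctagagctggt

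The *Bcl2* window held 7 GC boxes and was 74.8% G and C. The first *Bcl2l11* window held 3 GC boxes and 1 FOXO site, and the *Fas* window held 1 AP-1 site and 1 GC box. GC boxes also stood in the windows of *Bid* (3) and *Mcl1* (1), while those of *Bak1*, *Cflar* and *Casp8* held none of the motifs searched. The windows of *Bak1* and *Casp8* lay inside the bounds of these genes given below, so sequence before their outermost starts was not read. The NF-κB consensus was found before 1 of the 3 starts of *Bcl2l1*, and the p53 half-site before none of the 12. Of 32851 promoters of this length, 32.7% held a GC box, 6.75% an AP-1 site, 3.17% a FOXO site, 7.25% the NF-κB consensus and 7.13% the p53 half-site. A match describes the letters of a window and shows no binding.

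Total counts were between 11514716 and 24390082 per library, and a single one of the 10 genes had between 89 and 12852 counts in a library. Levels are given as CPM, counts scaled to a common library total by TMM over the 18 libraries. *Rnf138* itself did not pass as lower in any group labelled RNF138-/-. Its ranges overlapped between genotypes in colitis and the organoids, with means of 19.6 CPM in the wild type against 18.8 and of 48.9 against 46.9 (edgeR, adjusted p = 0.963 and 0.668). It had 15.6 to 25.1 CPM against 18 to 19.5 in colitis, 37.7 to 55.7 against 42.8 to 50.3 in the organoids, and 21.5 to 27.6 against 39.7 to 45.8 in CAC, where the libraries labelled RNF138-/- were higher (log2 fold change 0.72, edgeR adjusted p = 0.0426, SE 0.14). Which exons a deletion would remove is not known here, so these counts do not settle the labels, and "labelled RNF138-/-" names a library by its label alone. In the organoids the genotypes also differed in sex-linked genes. The 3 wild type organoid libraries had between 4924 and 6881 counts of *Xist* and 0 of the Y-linked *Ddx3y*, *Eif2s3y*, *Kdm5d* and *Uty*, the 3 labelled RNF138-/- had at most 3 counts of *Xist* with the Y-linked genes expressed, and the 12 tissue libraries all expressed Y-linked genes. Genotype and sex-linked expression cannot be told apart in the organoids.

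The clearest changes between genotypes were in the organoids. There *Bcl2*, *Bcl2l1*, *Bid* and *Bcl2l11* were lower and *Tnfrsf10b* and *Cflar* were higher in the libraries labelled RNF138-/- (edgeR quasi-likelihood test, Benjamini-Hochberg adjusted p under 0.05 over all genes), so that 6 of the 10 genes passed, while *Mcl1*, *Bak1*, *Fas* and *Casp8* did not. Of all genes tested in the organoids 35.5% passed, 17.9% as higher and 17.7% as lower, and the groups did not overlap for 6 of the 10 genes against 53.2% of all genes. None of the 6 changes reached 2-fold, which 15% of all genes tested did at this adjusted p. The median log2 fold change of the 10 genes was -0.13, against -0.04 over all genes tested. Without the organoid library 3 labelled RNF138-/-, 3 of the 10 genes passed.

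In CAC, none of the 10 genes passed, against 6.38% of all genes tested. At an unadjusted p under 0.05 there were 5, *Bcl2*, *Mcl1*, *Bak1*, *Bcl2l11* and *Fas*, against 33.8% of all genes, and 4 of them (all except *Bak1*) had groups that did not overlap, against 45.2% of all genes. DESeq2 called 2 of the 10, *Fas* (adjusted p = 0.00426) and *Mcl1* (adjusted p = 0.0144), against 20.2% of all genes with an adjusted p. The edgeR fit of all 18 libraries called 3, these and *Bcl2* (adjusted p = 0.0125), against 23.5% of all genes, and edgeR without a filter on low counts called *Fas* alone (adjusted p = 0.0434), against 5.77%. In colitis, none passed, against 0.0902% of all genes tested, and DESeq2 called none, against 2.22%. None reached an unadjusted p of 0.05, against 10.4% of all genes. The log2 fold changes in colitis ran from -0.19 to 0.63, with a median of 0.02 (0.02 over all genes), and *Tnfrsf10b* was the only 1 of the 10 whose groups did not overlap, against 17.2% of all genes.

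**Figure D1:**
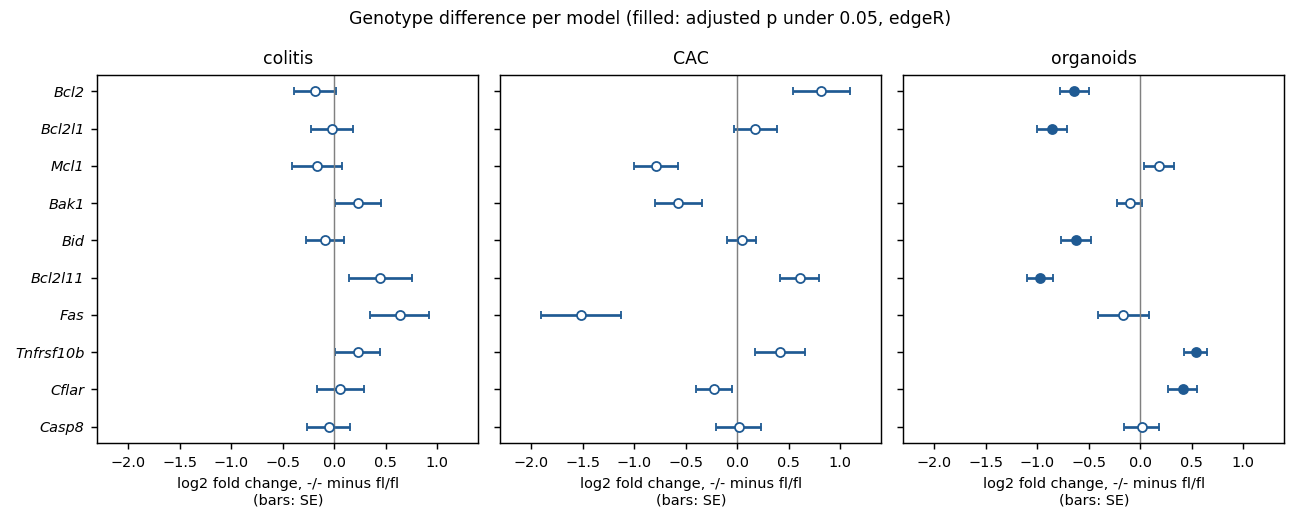
Log2 fold change of each of the 10 genes, libraries labelled RNF138-/- minus wild type, in colitis, CAC and organoids, with standard error bars from edgeR (3 libraries in each group). Filled points passed an adjusted p of 0.05: 6 genes in the organoids, none in colitis or CAC.

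Among the pro-survival genes, *Bcl2* lies on chromosome 1 of mm10 from 106538178 to 106714274 on the minus strand, and its exons overlap those of the antisense gene *D630008O14Rik*, whose reads cannot be told apart from its own without strand. In colitis it had 22.7, 20.5 and 29.4 CPM in the wild type libraries and 19.9, 20.6 and 23.2 in those labelled RNF138-/-. In CAC the wild type libraries had 23.3, 29.4 and 14.1 CPM and those labelled RNF138-/- 32.7, 45.3 and 44.0. In CAC the groups did not overlap, and the wild type library 3 was the lowest of the 18. The log2 fold change in CAC was 0.82 (edgeR adjusted p = 0.101, SE 0.28).

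In the organoids *Bcl2* moved the other way. The wild type libraries had 32.8, 41.3 and 42.9 CPM, and those labelled RNF138-/- had 24.6, 27.4 and 25.1. All 3 of the latter lay below every wild type library. *Bcl2* was 1.56-fold lower (log2 fold change -0.64, edgeR adjusted p = 0.0108, SE 0.14). This call was lost without the organoid library 3 labelled RNF138-/- (edgeR, adjusted p = 0.0506), and in the fit of all 18 libraries (edgeR, adjusted p = 0.0754).

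*Bcl2l1* (chromosome 2, 152780668 to 152831728, minus strand), which encodes Bcl-xL, had 58.7, 53.6 and 45.8 CPM in wild type colitis and 57.9, 57.9 and 40.1 in colitis labelled RNF138-/-. In CAC it had 89.8, 76.5 and 53.2 CPM in wild type tissue and 93.3, 75.2 and 88.5 in that labelled RNF138-/-. In both tissues the genotypes overlapped. The organoids were highest, with 176, 238 and 223 CPM in the wild type libraries and 127, 107 and 129 in those labelled RNF138-/-, and the ranges were apart. *Bcl2l1* was thus 1.81-fold lower in the organoids labelled RNF138-/- (log2 fold change -0.85, edgeR adjusted p = 0.00497, SE 0.15). Dropping any 1 of the 6 libraries kept the call.

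*Mcl1* (chromosome 3, 95658788 to 95663176, plus strand), whose protein is short-lived and protects cells from mitochondrial death, had the most counts of the 10. It had 552, 541 and 438 CPM in wild type colitis and 534, 515 and 318 in colitis labelled RNF138-/-. In CAC the wild type libraries had 412, 309 and 483 CPM and those labelled RNF138-/- 249, 208 and 266. The latter were the 3 lowest values of all 18, with a log2 fold change of -0.79 (edgeR adjusted p = 0.0694, SE 0.22). The organoids had 652, 567 and 474 CPM against 662, 680 and 625, and the groups overlapped.

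*Bak1* (chromosome 17, 27019810 to 27029009, minus strand) encodes the pore-forming protein of the mitochondrial route, and its exons overlap those of *Ggnbp1* on the opposite strand. Its level was 80.8, 86.0 and 68.4 CPM in wild type colitis and 121, 84.1 and 71.3 in colitis labelled RNF138-/-, where library 1 stood above the rest. In CAC it was 69.2, 53.1 and 89.4 CPM in wild type tissue and 57.2, 41.8 and 49.1 in that labelled RNF138-/-, with ranges that overlapped. The log2 fold change in CAC was -0.57 (edgeR adjusted p = 0.137, SE 0.23). In the organoids all 6 libraries lay between 42.5 and 51.9 CPM.

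*Bid* (chromosome 6, 120891930 to 120916853, minus strand) links caspase-8 to the mitochondrion, and its exons overlap those of *Bcl2l13* on the opposite strand. In colitis its 6 libraries lay between 13.4 and 16.7 CPM, and in CAC between 22.0 and 28.0, with overlapping genotypes in both. In the organoids the wild type libraries had 17.5, 21.2 and 22.1 CPM and those labelled RNF138-/- 14.0, 12.9 and 13.5, so the ranges were apart. *Bid* was 1.54-fold lower in the latter (log2 fold change -0.63, edgeR adjusted p = 0.0134, SE 0.14). The call was lost without the organoid library 2 (edgeR, adjusted p = 0.0613) or 3 (edgeR, adjusted p = 0.0541) labelled RNF138-/-.

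*Bcl2l11* (chromosome 2, 128126038 to 128162547, plus strand), which encodes the BH3-only protein Bim, spanned a wide range. It had 17.3, 10.3 and 18.2 CPM in wild type colitis and 22.2, 14.2 and 26.1 in colitis labelled RNF138-/-. In CAC it had 40.0, 48.6 and 32.4 CPM in wild type tissue and 56.4, 75.0 and 59.8 in that labelled RNF138-/-. The CAC groups did not overlap, with a log2 fold change of 0.61 (edgeR adjusted p = 0.087, SE 0.19). In the organoids the order of the genotypes was the opposite: the wild type libraries had 147, 126 and 112 CPM and those labelled RNF138-/- 64.4, 62.5 and 74.3. *Bcl2l11* was 1.96-fold lower (log2 fold change -0.97, edgeR adjusted p = 0.00226, SE 0.13), the largest change of the 10 in the organoids, and dropping any 1 library kept the call.

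Of the death receptors, *Fas* (chromosome 19, 34290666 to 34327772, plus strand) was among the genes with few counts. In wild type colitis it had 8.94, 8.31 and 13.9 CPM and in colitis labelled RNF138-/- 14.2, 13.2 and 20.8. In CAC the wild type libraries had 9.66, 9.17 and 20.2 CPM and those labelled RNF138-/- 5.74, 3.60 and 4.84. The latter were the 3 lowest of the 18, and the wild type library 3 was above its group. The log2 fold change in CAC was -1.51 (edgeR adjusted p = 0.0616, SE 0.39). Its 12 alternatives gave adjusted p values from 0.00426 to 0.397, and a log2 fold change of -1.02 without the CAC wild type library 3, the smallest of them. In the organoids *Fas* had 15.7, 13.2 and 9.85 CPM against 9.27, 15.7 and 10.5, with overlap.

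*Tnfrsf10b* (chromosome 14, 69767472 to 69784411, plus strand), the TRAIL receptor, was lowest in colitis, where the wild type libraries had 6.93, 7.75 and 7.56 CPM and those labelled RNF138-/- 8.56, 7.86 and 9.60. In CAC it had 12, 14.5 and 9.75 CPM in wild type tissue and 20.9, 16.2 and 13.1 in that labelled RNF138-/-, and these ranges overlapped. In the organoids the wild type libraries had 38.5, 34.3 and 38.0 CPM and those labelled RNF138-/- 58.9, 49.9 and 56.6. The groups were apart, and *Tnfrsf10b* was 1.45-fold higher in the latter (log2 fold change 0.54, edgeR adjusted p = 0.00927, SE 0.11), with each library left out as well. Another gene shares 5.8% of its windows of 50 bases.

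*Cflar* (chromosome 1, 58711508 to 58758884, plus strand), the inhibitor of caspase-8, shares 7.04% of such windows with another gene. In colitis its libraries lay between 59.7 and 93.8 CPM, and in CAC between 74.2 and 112, with overlap in both. In the organoids the wild type libraries had 99.0, 67.9 and 80.4 CPM and those labelled RNF138-/- 106, 119 and 113, so the groups were apart by a small margin. *Cflar* was 1.33-fold higher (log2 fold change 0.41, edgeR adjusted p = 0.0483, SE 0.14). This call was lost when 5 of the 6 libraries were left out in turn, all but the wild type library 1 (edgeR, adjusted p between 0.0851 and 0.143), and in the fit of all 18 libraries (edgeR, adjusted p = 0.12).

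*Casp8* (chromosome 1, 58795374 to 58847503, plus strand), the protease that starts the receptor route, varied least between groups. The 6 group means lay between 87.5 and 111 CPM, and the genotypes overlapped in each model. The genotype difference, as the log2 fold change minus and plus 2 SE, ran from -0.47 to 0.36 in colitis, -0.43 to 0.45 in CAC and -0.33 to 0.35 in the organoids.

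**Figure D2:**
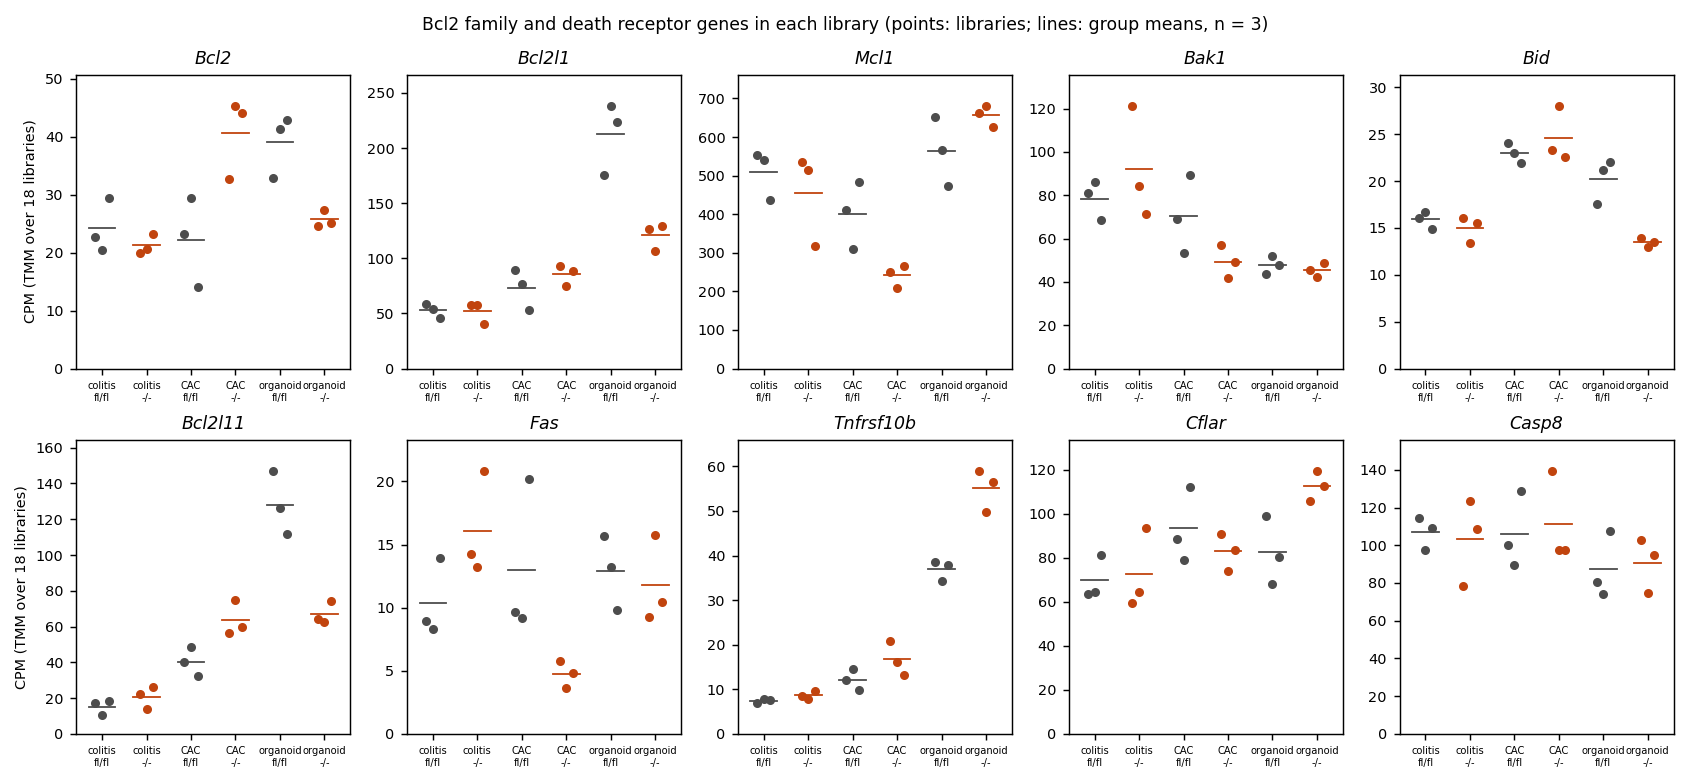
CPM of each of the 10 genes in the 18 libraries, by model and genotype (grey: fl/fl; orange: labelled RNF138-/-), with group means as lines. *Bcl2l1* and *Bcl2l11* reach their highest values in the wild type organoids, and *Fas* and *Mcl1* their lowest in CAC labelled RNF138-/-.

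For single genes an exact permutation test of 3 libraries against 3 cannot give a p under 0.1 (two-sided), and each of the 6 organoid calls gave 0.1. Whether the genotype difference itself changed between models was tested as a contrast of differences in the fit of all 18 libraries. Between CAC and colitis, 2 of the 10 genes passed, against 14.1% of all genes (4.21% upwards, 9.88% downwards): *Bcl2* (1.05 on the log2 scale, edgeR adjusted p = 0.0371, SE 0.32) and *Fas* (-2.08, edgeR adjusted p = 0.0109, SE 0.48). Between organoids and CAC, 5 of the 10 passed, against 23.3% of all genes (13.1% upwards, 10.2% downwards): *Bcl2*, *Bcl2l1*, *Bid* and *Bcl2l11* downwards and *Mcl1* upwards. The difference for *Bcl2l11* was -1.59 (edgeR adjusted p = 0.00355, SE 0.33) and that for *Bcl2* -1.47 (edgeR adjusted p = 0.00431, SE 0.32). For the pro-survival *Bcl2* and the pro-death *Bcl2l11*, the libraries labelled RNF138-/- thus stood above wild type in CAC and below it in the organoids, without overlap in either model. These 2 contrasts use the same CAC libraries. The contrast of *Bcl2* between CAC and colitis missed the threshold with 8 of the 12 libraries left out 1 at a time, and those of *Bid* and *Mcl1* between organoids and CAC with 7 of 12.

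Levels of different genes are compared per length only, as RPKM, the CPM divided by the summed exon length of the gene in kilobases. *Mcl1* was the highest of the 10 in all 6 groups, and its libraries did not overlap those of the next gene. It averaged 149 ± 18.4 RPKM (SD, n = 3) in wild type colitis, 117 ± 25.7 in wild type CAC and 165 ± 26.2 in wild type organoids, and 70.6 ± 8.67 in CAC labelled RNF138-/-. *Casp8* and *Bak1* followed in both colitis groups, at 37.0 ± 2.99 and 32.6 ± 3.75 RPKM (SD, n = 3) in the wild type, and overlapped each other there. In the wild type organoids *Bcl2l1* came second with 46.3 ± 7.10 RPKM (SD, n = 3), and its libraries did not overlap those of *Casp8* (30.2 ± 6.17). In the organoids labelled RNF138-/- *Casp8* was second with 31.3 ± 5.02, and overlapped *Bcl2l1* (26.3 ± 2.65).

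The lower end of the order differed between models too. *Tnfrsf10b* was lowest in both colitis groups (1.36 ± 0.0790 RPKM, SD, n = 3, in the wild type, overlapping *Bcl2l11* at 1.90 ± 0.534) and in wild type CAC, where it overlapped *Bcl2*. *Fas* was lowest in CAC labelled RNF138-/- (2.29 ± 0.521 RPKM, overlapping *Tnfrsf10b* at 3.07 ± 0.718), and *Bcl2* in both organoid groups (4.26 ± 0.593 in the wild type, below every *Bid* value). *Tnfrsf10b* rose to the sixth place in wild type organoids and to the fifth in those labelled RNF138-/-, with 10.1 ± 0.861 RPKM. The per-length ratio of *Mcl1* to *Bcl2l1* is a description chosen after the values were seen. It averaged 13 ± 0.476 (SD, n = 3) in wild type colitis, 7.92 ± 3.71 in wild type CAC and 3.67 ± 1.14 in wild type organoids. In the libraries labelled RNF138-/- it averaged 11.7 ± 0.908, 3.78 ± 0.234 and 7.36 ± 1.06. Wild type CAC library 3 had a ratio of 12.2, above the rest of its group.

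**Figure D3:**
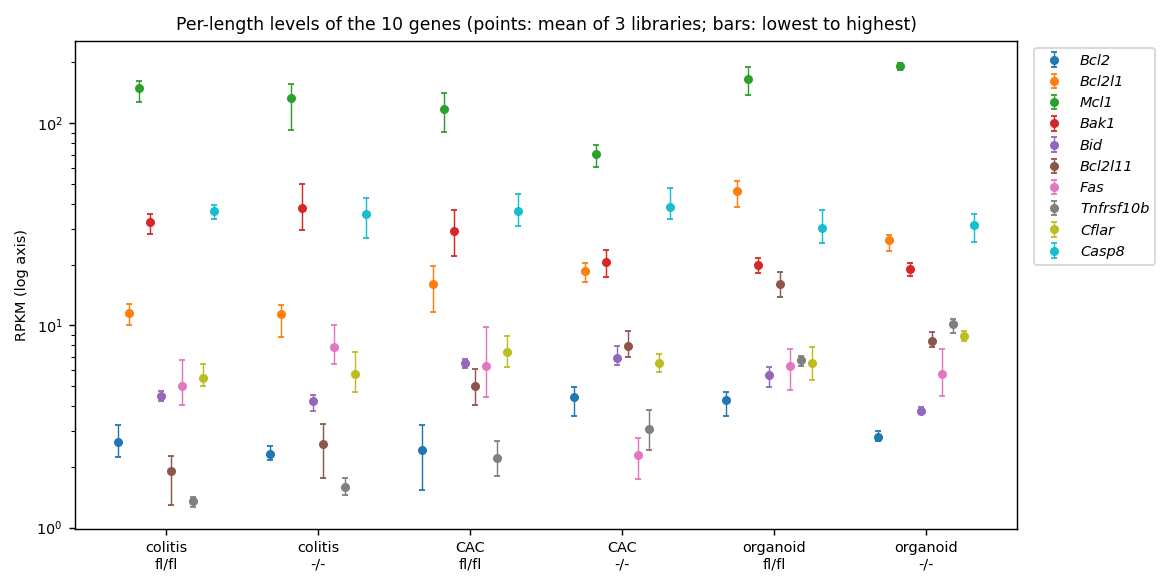
RPKM of the 10 genes in the 6 groups on a log axis, as the mean of 3 libraries with bars from the lowest to the highest library. *Mcl1* lies above all others in every group, and *Tnfrsf10b* climbs from the lowest place in colitis to the middle in the organoids.

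CAC was then compared with colitis within each genotype. In wild type tissue 3 of the 10 genes passed, *Bcl2l11*, *Tnfrsf10b* and *Bid*, all higher in CAC, against 19.8% of all genes (12.3% higher, 7.55% lower). *Bcl2l11* was 2.65-fold higher (log2 fold change 1.4, edgeR adjusted p = 8.89e-04, SE 0.24), with each of the 6 libraries left out as well. *Tnfrsf10b* was 1.64-fold higher (log2 fold change 0.71, edgeR adjusted p = 0.0136, SE 0.19) and *Bid* 1.45-fold higher (log2 fold change 0.53, edgeR adjusted p = 0.0185, SE 0.15). Only *Bcl2l11* passed when the fit held these 2 groups alone, and the count was also 1 without colitis wild type library 1 or 2 or CAC wild type library 2. *Bid* further lost its call without colitis wild type library 3 or CAC wild type library 1 (edgeR, adjusted p at most 0.0861) and without the low-count filter (0.139), and *Tnfrsf10b* lost its call in a fit of the 12 tissue libraries added after seeing the data (edgeR, adjusted p = 0.0576).

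Between the tissues labelled RNF138-/-, 8 of the 10 genes passed, 5 as higher in CAC and 3 as lower, against 54.7% of all genes (27.9% higher, 26.7% lower). The groups did not overlap for the 8, against 59.1% of all genes. *Bcl2l11* was 3.06-fold higher (log2 fold change 1.61, edgeR adjusted p = 6.14e-05, SE 0.24), and *Bcl2*, *Tnfrsf10b*, *Bcl2l1* and *Bid* were between 1.64- and 1.93-fold higher. *Fas* was 3.41-fold lower (log2 fold change -1.77, edgeR adjusted p = 4.94e-04, SE 0.34), *Mcl1* 1.89-fold and *Bak1* 1.87-fold lower. All 8 calls held with each of the 6 libraries left out. *Bcl2l11*, *Bid* and *Tnfrsf10b* thus passed as higher in CAC in both genotypes, in comparisons of separate libraries within one fit. How many of all genes passed as higher in both was not counted.

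Between wild type organoids and CAC tissue, 5 of the 10 genes passed, 4 as higher in the organoids and 1 as lower, against 60.7% of all genes (27% higher, 33.7% lower). *Bcl2l11* (3.17-fold), *Tnfrsf10b* (3.04-fold), *Bcl2l1* (2.90-fold) and *Bcl2* (1.75-fold) were higher, and *Bak1* was 1.48-fold lower. The *Bak1* call was lost without CAC wild type library 3 or organoid wild type library 1 or 3 (edgeR, adjusted p between 0.0514 and 0.148), and *Bcl2* missed the threshold in the fit of these 2 groups alone (edgeR, adjusted p = 0.0512). Between the organoids and CAC tissue labelled RNF138-/-, 6 passed, 4 as higher and 2 as lower, against 59.9% of all genes (25.7% higher, 34.2% lower). *Tnfrsf10b* (3.30-fold), *Mcl1* (2.72-fold), *Fas* (2.50-fold) and *Bcl2l1* (1.41-fold) were higher in the organoids, while *Bid* was 1.83-fold and *Bcl2* 1.58-fold lower. *Bcl2l1* lost its call on leaving out any library except organoid library 2 labelled RNF138-/- (edgeR, adjusted p between 0.0546 and 0.152), and without the filter on low counts (edgeR, adjusted p = 0.0742). *Bcl2* lost its call without CAC library 2 or 3 or organoid library 1 or 3 labelled RNF138-/- (edgeR, adjusted p between 0.0533 and 0.0626). These comparisons share the CAC libraries with those of CAC and colitis.

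Other genes of the same routes were taken as a list of 39, of which 2, *Bcl2l10* and *Fasl* (the ligand of Fas), had too few counts to be tested in any comparison. In colitis none of 35 tested passed between genotypes, against 0.0902% of all genes, and 3 had an unadjusted p under 0.05, against 10.4% of all genes. In CAC 2 of 36 were lower in the libraries labelled RNF138-/- and 1 was higher, against 5.33% and 1.05% of all genes. *Tradd*, an adaptor of the TNF receptor, fell from 66.1 to 30.9 CPM (log2 fold change -1.15, edgeR adjusted p = 0.0359, SE 0.21). *Tnfsf10*, which encodes TRAIL, rose from 22.0 to 53 CPM (log2 fold change 1.21, edgeR adjusted p = 0.0486, SE 0.26). A fit with Y-linked expression as a covariate called 0 of 17752 genes in CAC, so neither of these calls held in it. The other alternatives were not read for single genes of this list.

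In the organoids 5 of 34 tested genes of this list were higher and 6 lower, against 17.9% and 17.7% of all genes. Among those that passed, the 3 that fell most were the BH3-only genes *Bmf* (from 71.1 to 27.8 CPM, log2 fold change -1.39, edgeR adjusted p = 0.00259, SE 0.20) and *Bik* (from 14.5 to 7.24 CPM, log2 fold change -1.04), and *Faim* (from 21.6 to 11.3 CPM, log2 fold change -0.98), an inhibitor of Fas-driven death. The 3 passing genes that rose most were *Ripk3*, the kinase of necroptosis (from 27.4 to 56.0 CPM, log2 fold change 0.99, edgeR adjusted p = 0.00567, SE 0.18), *Birc3*, an inhibitor of apoptosis induced by NF-κB (from 37.5 to 75.8 CPM, log2 fold change 0.98), and *Tnfrsf23*, a decoy receptor for TRAIL (from 62.6 to 113 CPM, log2 fold change 0.81), which shares 18% of its windows with another gene. The median log2 fold change of the list was -0.06 in the organoids and -0.01 in CAC, against -0.04 and 0.01 over all genes.

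Across models, 4 of 37 genes of the list were higher and 3 lower in CAC than in colitis in wild type tissue, against 12.3% and 7.55% of all genes. In tissue labelled RNF138-/- 12 were higher and 6 lower, against 27.9% and 26.7% of all genes. *Bmf* passed as higher in CAC in both (log2 fold change 1.25, adjusted p = 0.0333, and 1.95, adjusted p = 6.96e-04, edgeR). In the wild type its CAC libraries had 50.3, 50.4 and 12.5 CPM, and library 3 lay below all of the colitis libraries (14.7 to 17.1 CPM). *Bad*, another BH3-only gene, was lower in both (log2 fold change -1.02, adjusted p = 0.00657, and -1.28, adjusted p = 3.57e-04, edgeR). In organoids against CAC 9 were higher and 16 lower in the wild type, against 27% and 33.7% of all genes, and 5 were higher and 14 lower in those labelled RNF138-/-, against 25.7% and 34.2%. *Pmaip1*, which encodes the BH3-only protein Noxa, averaged 278 CPM in wild type organoids against 49.97 in wild type CAC, and *Tnfsf10* 2.83 against 22.0, with log2 fold changes of 2.48 and -2.95 (edgeR, adjusted p = 2.43e-06 and 1.53e-05).

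**Figure D4:**
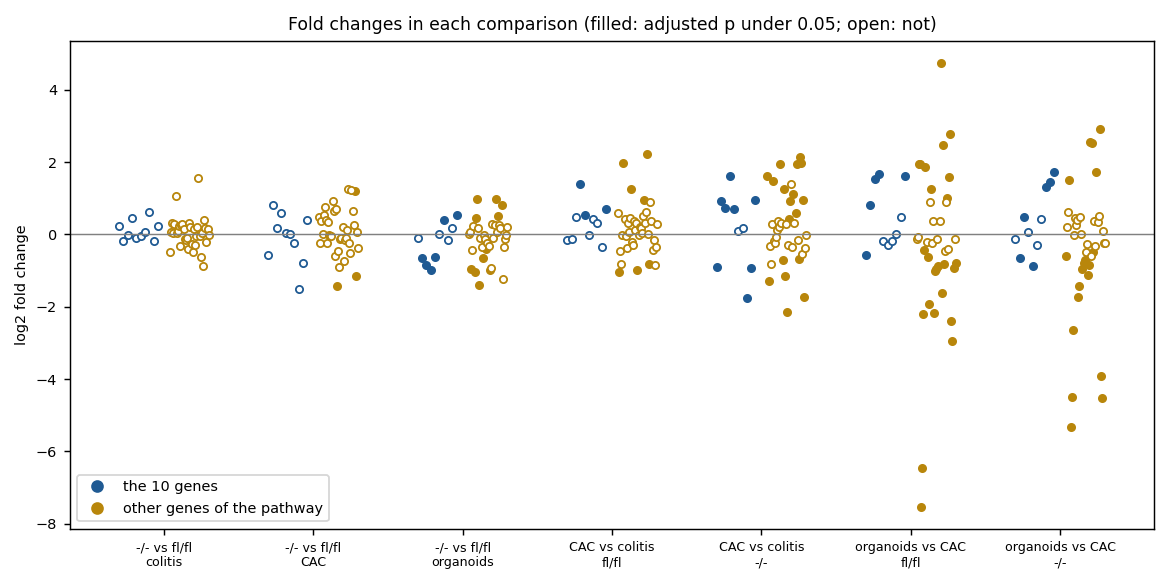
Log2 fold changes of the 10 genes (blue) and of the other genes of the pathway that were tested (gold) in 7 comparisons, with filled points for an adjusted p under 0.05 (edgeR). No point is filled in the colitis genotype comparison, and the other genes of the pathway spread furthest where organoids are set against CAC.

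For each of the 10 genes, the gene most like it over the 18 libraries was found among the other 9 and the 37 tested genes of the list, by Pearson's r of log2 CPM. The 18 points share models and genotypes, so r is a description. *Tnfrsf10b* was most like *Tnfrsf23* (r = 0.957), *Bak1* like *Cycs* (0.936), which encodes cytochrome c, *Bcl2l1* like *Pmaip1* (0.881), *Bcl2l11* like *Tnfrsf22* (0.878) and *Bcl2* like *Bmf* (0.863). The others had 0.790 (*Bid* with *Faim*), 0.758 (*Cflar* with *Birc2*), 0.720 (*Mcl1* with *Tnfrsf1a*), 0.671 (*Casp8* with *Mlkl*) and 0.605 (*Fas* with *Mcl1*). Within the 12 tissue libraries the most similar gene was another one for 8 of the 10, all but *Bak1* (with *Cycs*, 0.900) and *Casp8* (with *Mlkl*, 0.551). There *Mcl1* was most like *Tradd* (0.961), and the r of *Bcl2l1* with *Pmaip1* was 0.630 and that of *Tnfrsf10b* with *Tnfrsf23* 0.702. Other genes hold 27.4% of the windows of *Tnfrsf22* and 25.9% of those of *Cycs*, so both counts are uncertain.

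Markers of cell types moved with several of these results. In CAC the 5 smooth muscle genes (*Acta2*, *Myh11*, *Des*, *Cnn1* and *Tagln*) summed to 2145 to 6920 CPM in wild type tissue and 102 to 203 in that labelled RNF138-/-, and the 6 genes of B and plasma cells to 1505 to 2267 against 125 to 215. The 6 epithelial genes summed to 6422 to 13280 CPM in wild type CAC and 5362 to 6162 in CAC labelled RNF138-/-. Among these genes 3 were apart and lower in the latter and 3 overlapped. The sums of the 6 myeloid genes overlapped between the genotypes (279 to 592 against 562 to 841 CPM). So did the sums of the 6 T cell genes (17.1 to 31.1 against 7.79 to 19.0 CPM) and the 4 endothelial genes (83.0 to 111 against 63.1 to 98.6 CPM). Of the myeloid genes 3 of 6 were apart and higher in CAC labelled RNF138-/-. In the same group 1 of 6 T cell genes and 1 of 4 endothelial genes were apart and lower. All these markers were detected in every CAC library. The CAC wild type library 3, which stood apart for *Bcl2* and *Fas*, had the highest sums of smooth muscle and epithelial genes in its model. Each of the 5 smooth muscle and 6 B and plasma cell genes was apart between the genotypes. Between colitis and CAC labelled RNF138-/-, where 8 of the 10 genes passed, smooth muscle sums were 4436 to 12770 against 102 to 203 CPM, those of B and plasma cells 1538 to 2684 against 125 to 215, those of myeloid cells 303 to 440 against 562 to 841, and those of epithelium 6958 to 10120 against 5362 to 6162. T cell sums (36.5 to 43.3 against 7.79 to 19.0 CPM) and endothelial sums (115 to 152 against 63.1 to 98.6 CPM) were lower in CAC as well, and fibroblast sums overlapped. The 6 epithelial genes did not move together here, with 2 apart and higher in CAC, 3 apart and lower and 1 overlapping. Between wild type colitis and CAC the sums of all 7 lists overlapped. The part of these markers in the values of the 10 genes was not tested. In bulk samples, fewer cells of a type and less RNA per cell cannot be told apart.

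The organoids expressed all 6 epithelial markers, with sums of 7886 to 8768 CPM in the wild type and 4562 to 6644 in those labelled RNF138-/-. They also expressed all 6 fibroblast markers, at 9097 to 23240 CPM in the wild type and 40430 to 49680 in those labelled RNF138-/-, against 924 to 1733 over the 12 tissue libraries. The fibroblast sums were apart between the organoid genotypes, as were those of the 5 smooth muscle genes (248 to 1196 against 1246 to 1378 CPM) and the 6 myeloid genes (23.8 to 34.6 against 100.5 to 151.6 CPM). Of the 6 fibroblast genes all 6 were apart and higher in those labelled RNF138-/-, of the smooth muscle genes 4 of 5, and of the myeloid genes 4 of 6 with 1 apart and lower. Among the 6 epithelial genes 3 were apart and lower in those labelled RNF138-/- and 3 overlapped. The sum of the 4 endothelial genes was lower in those labelled RNF138-/- (2.54 to 5.08 against 10.8 to 13.6 CPM) through *Cldn5* (means of 1.21 against 9.42 CPM), while *Pecam1* was apart and higher and *Cdh5* and *Kdr* overlapped. The part of these lists in the 6 organoid calls was not tested. Markers of B and plasma cells and of T cells were near 0 in the organoids, at most 1.67 and 0.346 CPM. In colitis the sum of the T cell markers was apart between genotypes, with 19.2 to 19.7 CPM in the wild type and 36.5 to 43.3 in tissue labelled RNF138-/-, while fibroblast, smooth muscle, epithelial, myeloid, endothelial and B cell sums overlapped. Of the 6 T cell genes 5 were apart and higher in tissue labelled RNF138-/- and 1, *Cd2*, overlapped. Among the other lists 2 of the 6 B and plasma cell genes and 1 of the 6 fibroblast genes were apart and higher, and 1 of the 6 epithelial genes was apart and lower.

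**Figure D5:**
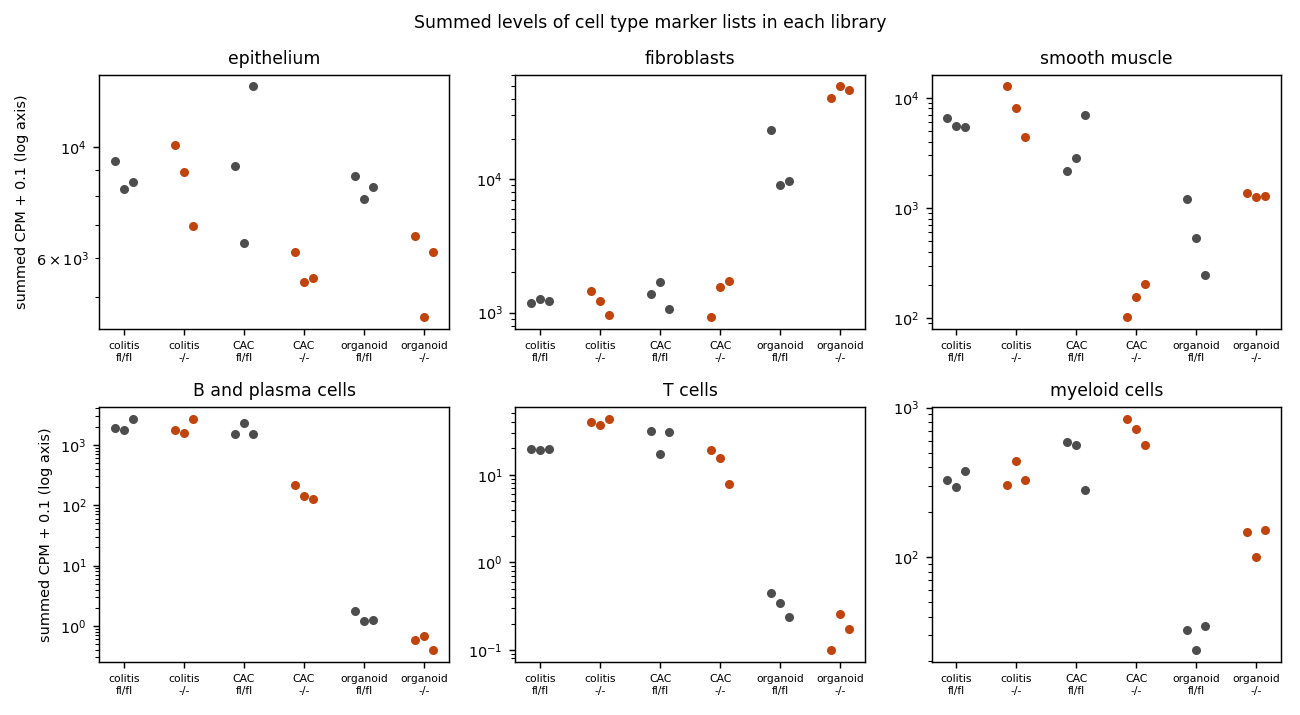
Summed CPM (plus 0.1, log axis) of 6 lists of cell type markers in the 18 libraries (grey: fl/fl; orange: labelled RNF138-/-). Smooth muscle and B cell markers are apart between the genotypes in CAC, and fibroblast markers are highest in the organoids labelled RNF138-/-.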

How the data were processed

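The authors deposited whole-number read counts per gene for 18 libraries, without normalization. The submitters' processing notes name STAR 2.6.1d, HTSeq 0.11.2, DESeq2 and mm10, while the paper names Cufflinks and Gencode v.M8, and use of strand is not given in the sources used here. A table of the authors' own fold changes and p-values was not used. Identifiers were matched to GENCODE M21 (36700 of 36757), which gave coordinates and exon lengths. Genotypes were compared within each model in edgeR 4.0.16 (R 4.3.3; TMM, filterByExpr, glmQLFit, glmQLFTest), and comparisons across models in one fit of all 18 libraries (19390 genes tested), with Benjamini-Hochberg adjustment and a threshold of 0.05. DESeq2 1.42.0, RLE factors, no low-count filter, other sets of samples, a Y-linked covariate, a replicate block and each library left out were alternatives, and a fit of the 12 tissue libraries was added after seeing the data.

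No library was a copy of another in its group, and pairs of libraries from different groups were not checked. On simulated data, of 200 genes changed 4-fold the fits recovered 161 (colitis), 122 (CAC) and 184 (organoids). All 10 genes and the single gene most like each were named. Of the pathway list, names were taken from the 3 most raised and 3 most lowered that passed in each comparison. Not all of these are named, and the results of 1 gene of the list are not reported here. The 10 genes and the lists were chosen with earlier results of these data known.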

Additional observations from a re-analysis of the deposited data

Results flagged for a closer look

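The genotype difference changed between models in 7 tests of the difference itself (interaction contrasts in the edgeR fit of all 18 libraries, adjusted over 19390 genes). Between CAC and colitis the contrast was 1.05 for *Bcl2* (adjusted p = 0.0371) and -2.08 for *Fas* (adjusted p = 0.0109) on the log2 scale. The *Bcl2* contrast lost its call on leaving out colitis wild type library 1 or 3, colitis library 1 or 2 labelled RNF138-/-, CAC wild type library 1 or 3, or CAC library 2 or 3 labelled RNF138-/- (adjusted p between 0.0647 and 0.119), and in a fit of the 12 tissue libraries (adjusted p = 0.0888). The *Fas* contrast passed with each of the 12 libraries left out. Between organoids and CAC the contrast was -1.47 for *Bcl2* (adjusted p = 0.00431), -1.04 for *Bcl2l1* (adjusted p = 0.0145), 0.95 for *Mcl1* (adjusted p = 0.0316), -0.68 for *Bid* (adjusted p = 0.0268) and -1.59 for *Bcl2l11* (adjusted p = 0.00355). Those of *Bcl2*, *Bcl2l1* and *Bcl2l11* passed with each of the 12 libraries left out. Those of *Bid* and *Mcl1* each lost their call with 7 of the 12 left out in turn. For *Mcl1* these were CAC wild type library 3, CAC library 2 labelled RNF138-/-, organoid wild type libraries 2 and 3, and all 3 organoid libraries labelled RNF138-/- (adjusted p between 0.0512 and 0.0773). For *Bid* these were CAC wild type libraries 2 and 3, CAC library 2 labelled RNF138-/-, organoid wild type libraries 2 and 3, and organoid libraries 2 and 3 labelled RNF138-/- (adjusted p between 0.0552 and 0.088), and it was also lost without the low-count filter (adjusted p = 0.204).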

How the results depend on the processing

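The number of the 10 genes past an adjusted p of 0.05 between genotypes in CAC was 0, and 2 by DESeq2, 1 without the low-count filter and 3 in the fit of all 18 libraries. In the organoids it was 6, and 3 to 6 with 1 library left out. For CAC against colitis in the wild type it was 3, 1 in the fit of those 2 groups alone and 1 to 4 with 1 library left out. For the genotype contrast between CAC and colitis it was 2, 1 in the fit of 12 tissue libraries (added after seeing the data) and 1 to 4 with 1 library left out, and for that between organoids and CAC 5, and 3 to 6 with 1 left out. The cause of these shifts was not tested. Over 40 fold changes of called genes or of genes with an unadjusted p under 0.05 between genotypes, and 493 settings, none changed sign, 61 lost their call and 6 gained one. Of the 50 other fold changes, 50 of 647 settings turned the sign of one that had not passed, and 13 brought one past the threshold.

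Replicate numbers are shared by the genotypes. Same-numbered libraries had correlations of their deviations of 0.092 to 0.483 in colitis, 0.028 to 0.207 in CAC and -0.181 to 0.054 in the organoids. No model had all 3 pairs over 0.1. The libraries matched their own number best in 1, 3 and 0 of 3 pairs, for CAC a hint from the data and not the design. With 3 libraries in each group these values cannot decide whether same-numbered libraries were paired. With a replicate block, genes called among all were 91 in colitis (15 without it), 1219 in CAC (1132) and 4032 in the organoids (5436), and of the 10 genes only *Cflar* lost its organoid call (edgeR, adjusted p = 0.0841). By DESeq2 the calls among all genes were 395, 4007 and 5429, without the low-count filter 362, 1871 and 5733, in the fit of all 18 libraries 18, 4560 and 3258, and with the Y-linked covariate 203 in colitis and 0 in CAC.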
